A study of Mus musculus with 5 samples.

Results

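The 10 genes described here encode checkpoint receptors of T cells, 1 of their ligands and regulators of T cell exhaustion: Pdcd1, Lag3, Havcr2, Tigit, Ctla4, Cd160, Cd274, Entpd1, Tox and Tcf7. They were taken by symbol from the 32285 genes that every library of the series lists, and their levels and joint detection were read in CD8, conventional CD4 and Foxp3-positive T cells of the kidney. All mice were wild-type male C57BL/6 animals aged 8 to 10 weeks. Control mice received vehicle. The injected mice received aristolochic acid I (AAI), a plant toxin that injures the proximal tubule, into the peritoneum at 3 mg/kg, repeated at intervals of 3 days for 2 weeks. Kidneys of the acute kidney injury (AKI) group were taken at the end of those 2 weeks, and kidneys of the chronic kidney disease (CKD) group after 2 more weeks without AAI. Digested whole kidney was sequenced in droplets, which gave 1 control, 2 AKI and 2 CKD libraries, and the 4 AKI and CKD libraries are called the injected libraries below. The labels do not tie a library to a mouse, so p-values measure the spread between these libraries, and AKI and CKD differ both in time and in the withdrawal of AAI.

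The libraries held 10873 to 22034 cell barcodes with 90028670 to 121316769 UMIs (unique molecular identifiers, each 1 captured RNA molecule), and 53718 cells were kept. T cells were taken from clusters with T lymphocyte markers and needed a UMI of Cd3d, Cd3e or Cd3g. CD8 T cells carried a UMI of Cd8a or Cd8b1 and none of Cd4 or Foxp3. Conventional CD4 T cells carried a UMI of Cd4 and none of Cd8a, Cd8b1 or Foxp3, and Foxp3-positive T cells a UMI of Foxp3 and none of Cd8a or Cd8b1. None of the 10 genes entered the gates or the clustering. The CD8 class held 351 control cells, followed by 2918, 2693, 2041 and 2162 cells, the conventional CD4 class 156 control cells followed by 954, 928, 871 and 1542, and the Foxp3-positive class 15 control cells followed by 276, 392, 135 and 257. Here and below, where 4 values are given together, they are those of AKI 1, AKI 2, CKD 1 and CKD 2, in that order. A further 8041 T cells had no UMI or a conflicting UMI of the gate genes and were in no class. The control library stood apart in that 38.7% of its barcodes had over 30% mitochondrial UMIs, against 11.1 to 12.7% in the others, and in that it shared 121 barcodes with CKD 2, of which 90 differed over 20-fold in UMIs between them. The other pairs of libraries shared 17 to 52 barcodes. Of the control cells that shared a barcode with a deeper CKD 2 cell, 2 were in the T cell classes, and the control's Pdcd1 level in CD8 T cells was 0.306 UMIs per 10000 with and without them. CKD 2 was the deepest library, with a median of 6082 UMIs per CD8 T cell against 3552 to 3952 in the others. CKD 1 held the most barcodes. Its lowest barcode had 1229 UMIs against 500 to 599 in the others, and it lost 2984 doublets against 672 to 1004. The chi-square of gene counts over its degrees of freedom was larger between the CKD libraries than between the AKI libraries. It was 20.5 against 5.85 in CD8, 15.2 against 3.04 in conventional CD4 and 4.55 against 2.32 in Foxp3-positive T cells, and it also grows with depth.

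PD-1 (Pdcd1), CTLA-4 (Ctla4), LAG-3 (Lag3), TIM-3 (Havcr2) and TIGIT (Tigit) are receptors that appear on T cells after stimulation and dampen signals from the T cell receptor or from co-stimulation. When stimulation persists, as in chronic infection or in tumours, CD8 T cells can hold several of these receptors at once, a state called exhaustion. TOX is a transcription factor that sets up that state, TCF-1 (Tcf7) marks naive, memory and self-renewing cells, and CD39 (Entpd1) is an ectoenzyme that degrades extracellular ATP. PD-L1 (Cd274) is the ligand of PD-1, and CD160 is a receptor of natural killer cells and of some CD8 T cells. Regulatory T cells, which depend on Foxp3, carry CTLA-4 without prior exhaustion.

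On the mouse build GRCm38.p6 of RefSeq, which matches the mm10 label in the control's gene list, Pdcd1 lies at chr1:94038305-94052553, Ctla4 at chr1:60909025-60915832, Lag3 at chr6:124904359-124912434, Havcr2 at chr11:46454931-46481255 and Tigit at chr16:43626137-43665125. Cd160 lies at chr3:96798763-96829351, Cd274 at chr19:29362107-29388095, Entpd1 at chr19:40612366-40741602, Tox at chr4:6686353-6991557 and Tcf7 at chr11:52246527-52283383. Some of these loci overlap others: Tigit overlaps Zbtb20 and Mir568, Tcf7 overlaps Skp1, Cd274 overlaps Plgrkt and Gm36043, Tox overlaps Gm11802 and Entpd1 overlaps 3 predicted genes, and how the counting assigned reads there is uncertain.

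The promoters of Pdcd1 and Ctla4 are shown because these are the receptors whose levels lay above the control's counting interval in every injected library, in both CD8 and conventional CD4 T cells. Each is the 250 bases before the RefSeq start, and capitals mark the NFAT core GGAAA or its reverse complement TTTCC, since NFAT carries the T cell receptor signal to many activation genes. The Pdcd1 promoter, at chr1:94052554-94052803 on the minus strand, held 2 matches, 28 and 23 bases before the start, and the Ctla4 promoter, at chr1:60908775-60909024 on the plus strand, held 1, 144 bases before the start.
Pdcd1: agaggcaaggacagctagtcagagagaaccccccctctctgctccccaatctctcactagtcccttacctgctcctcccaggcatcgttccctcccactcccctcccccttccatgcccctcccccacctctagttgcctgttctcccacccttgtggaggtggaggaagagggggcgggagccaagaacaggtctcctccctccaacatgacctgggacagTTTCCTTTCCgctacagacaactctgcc
Ctla4: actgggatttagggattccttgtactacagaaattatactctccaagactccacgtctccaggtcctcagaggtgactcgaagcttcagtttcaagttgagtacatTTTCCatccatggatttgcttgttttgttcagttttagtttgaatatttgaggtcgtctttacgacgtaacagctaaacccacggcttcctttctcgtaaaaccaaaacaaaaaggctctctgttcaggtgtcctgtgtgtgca
Of 11 promoters of 8 of the genes in the RefSeq table, 7 (63.6%) held an NFAT core, against 55.6% of all 32851 promoters of that length searched on both strands. The AP-1 motif TGANTCA was in 1 of the 11, that of Havcr2, against 6.75% of all, and the TCF/LEF core TCAAAG in 2, against 13.8%. A match is a run of letters and not a bound site.

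The classes carried the genes their names call for. Of 9 regulatory T cell genes, none used in the gates, all 9 were higher in Foxp3-positive than in conventional CD4 T cells, beside 11.1% of all genes. Among them were Il2ra, the high-affinity interleukin-2 receptor chain, 8.16-fold higher, and Lrrc32, which anchors latent TGF-beta, 10.2-fold higher (edgeR, adjusted p = 2.7e-11 and 2.84e-13). CD8 T cells held 24.2-fold more Prf1 (perforin) and 19.7-fold more Gzma (granzyme A) than conventional CD4 T cells (adjusted p = 3.04e-13 and 3.73e-14). The natural killer gene Klre1 was also 30.1-fold higher in the CD8 class (adjusted p = 4.74e-10). Transcripts of other cells were present in the T cell classes, and the summed level of 8 macrophage markers in CD8 T cells was 0.768 UMIs per 10000 in the control, 4.32 and 6.40 in AKI and 1.95 and 0.729 in CKD, with none of the 8 at 0 in any library. Summed tubule markers in CD8 T cells were at 12.8 per 10000 in the control and between 0.753 and 5.33 in the injected libraries.

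Against the other cells of the kidney, Pdcd1, Ctla4, Lag3 and Tox were highest in T cells, Havcr2, Entpd1 and Cd274 in cells of the myeloid lineage, and Cd160, Tigit and Tcf7 were shared with natural killer-like cells. Levels are given as UMIs per 10000 UMIs of a class, as mean ± SD over the 4 injected libraries. Pdcd1 stood at 0.760 ± 0.109 in CD8, 0.539 ± 0.0722 in conventional CD4 and 0.516 ± 0.113 in Foxp3-positive T cells, but at 0.0793 ± 0.0342 in natural killer-like and 0.0364 ± 0.030 in proximal tubule-like cells, which should lack it. The conventional CD4 and Foxp3-positive levels of Pdcd1 lay within each other's spread. Ctla4 ran from 7.97 ± 1.23 in Foxp3-positive through 2.65 ± 0.355 in conventional CD4 to 1.52 ± 0.161 in CD8 T cells, with 0.181 ± 0.0789 in proximal tubule-like cells. Lag3 was at 0.254 ± 0.0364 in CD8, 0.240 ± 0.0692 in Foxp3-positive and 0.178 ± 0.0759 in conventional CD4 T cells, and at 0.141 ± 0.0990 in macrophage- or monocyte-like cells and 0.146 ± 0.136 in fibroblast- or pericyte-like cells. The T cell levels of Lag3 overlapped in spread between libraries. Compared within libraries, Lag3 was higher in CD8 than in conventional CD4 T cells, as given below.

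Tigit was at 0.105 ± 0.0600 in Foxp3-positive, 0.0685 ± 0.0151 in conventional CD4, 0.0684 ± 0.0154 in CD8 and 0.0631 ± 0.0233 in natural killer-like cells, and those 4 levels did not differ beyond their spread. Havcr2 was highest outside the T cells, at 0.392 ± 0.154 in dendritic-like and 0.261 ± 0.0667 in macrophage- or monocyte-like cells, against 0.0621 ± 0.0189 in CD8, 0.0479 ± 0.0223 in Foxp3-positive and 0.0227 ± 0.00681 in conventional CD4 T cells. Its level in proximal tubule-like cells was 0.0101 ± 0.010, and below that mean in both AKI libraries, as given below. The conventional CD4 level of Havcr2 was at least 0.0162 in each injected library. Of the T cell classes it sat nearest to this background on average, but it lay above it in AKI. Cd160 was shared between CD8 T cells, at 1.05 ± 0.256, and natural killer-like cells, at 0.902 ± 0.185, and was at 0.234 ± 0.0365 in conventional CD4 and 0.0303 ± 0.010 in Foxp3-positive T cells, the last at the level of proximal tubule-like cells (0.0278 ± 0.0419).

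The ligand gene Cd274 was highest in neutrophil-like (2.28 ± 0.638) and dendritic-like cells (1.66 ± 0.299), and its levels in B lymphocyte-like (1.03 ± 0.251), conventional CD4 (1.00 ± 0.158), endothelial-like (0.885 ± 0.121) and Foxp3-positive cells (0.881 ± 0.183) lay within each other's spread, above CD8 T cells at 0.536 ± 0.0383. Entpd1 was at 5.05 ± 1.60 in neutrophil-like and 1.98 ± 0.255 in endothelial-like cells, and no T cell class came near them, with 0.164 ± 0.0406 in Foxp3-positive, 0.126 ± 0.0351 in CD8 and 0.0823 ± 0.0168 in conventional CD4 T cells. Tox was at 0.806 ± 0.0573 in Foxp3-positive, 0.798 ± 0.180 in conventional CD4, 0.606 ± 0.0988 in CD8 and 0.350 ± 0.0626 in natural killer-like cells. Tcf7 was at 1.12 ± 0.173 in natural killer-like, 1.01 ± 0.0633 in conventional CD4, 0.774 ± 0.0600 in CD8 and 0.185 ± 0.0824 in Foxp3-positive cells.

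**Figure D1:**
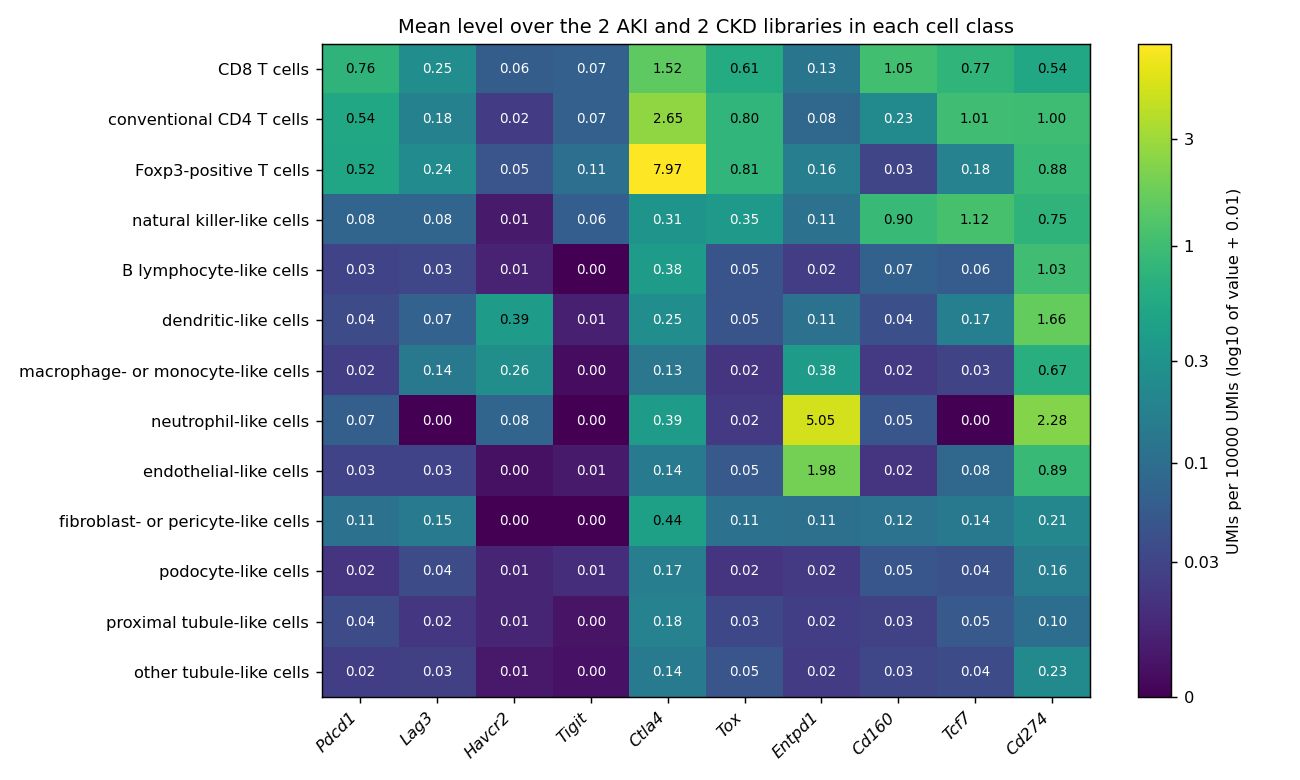
Mean level of each gene, in UMIs per 10000 UMIs, over the 4 injected libraries in the 3 T cell classes and 10 other cell classes, with colour on a log10 scale of the value plus 0.01. Ctla4 is at 7.97 in Foxp3-positive T cells, and Entpd1 at 5.05 in neutrophil-like cells lies far above its T cell levels.

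How the injected libraries differed from the control is described here by values. The control is 1 library with no replicate, and no test against it was run. Its T cells also clustered apart. A T lymphocyte cluster held 928 control cells and 24, 1, 48 and 3 cells of the injected libraries. Thick ascending limb markers scored second in it. The 2 clusters with Cd8b1 as leading gene held 44 and 75 control cells, against 735 to 2290 in each injected library. The part of this difference in the control's levels was not tested. In CD8 T cells, Pdcd1 was at 0.306 per 10000 in the control (41 UMIs, exact Poisson 95% interval 0.219 to 0.415, which covers counting error only) and at 0.784, 0.878, 0.614 and 0.764 in the injected libraries. Every injected library lay above the control's interval, and the mean of the 4 was 2.49 times the control. Ctla4 was at 0.731 in the control CD8 T cells (interval 0.593 to 0.891) and at 1.32, 1.63, 1.46 and 1.66 in the injected libraries, 2.08 times the control on average. Lag3 was at 0.0970 in the control (13 UMIs, interval 0.0516 to 0.166) and at 0.291, 0.263, 0.203 and 0.257 in the injected libraries, 2.62 times the control on average. For these 3 receptors no injected library overlapped the control's interval. The share of all genes that left the control's interval in this way was not counted.

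The other CD8 levels of the control lay less far off. Tox was at 0.373 in the control (interval 0.277 to 0.492) and at 0.659, 0.714, 0.495 and 0.556 in the injected libraries, so that CKD 1 cleared the interval by little. Cd274 was at 0.365 in the control (0.270 to 0.483) and at 0.485 to 0.576 in the injected libraries, again with CKD 1 at the edge. Tcf7 went the other way, from 1.39 in the control (1.20 to 1.61) to 0.746, 0.743, 0.743 and 0.864, 1.80 times lower on average. Cd160 was at 1.01 in the control (0.851 to 1.20), between the AKI libraries at 0.821 and 0.827 and the CKD libraries at 1.26 and 1.27. All 4 lay outside the interval, AKI below it and CKD above it. Entpd1 was at 0.142 in the control (0.0853 to 0.221) and at 0.155, 0.156, 0.103 and 0.0880 in the injected libraries, all 4 inside the interval. Havcr2 and Tigit had 6 and 2 UMIs in the control CD8 T cells, too few for a ratio.

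In conventional CD4 T cells of the control, Ctla4 was at 0.754 (interval 0.554 to 1.00), against 2.49 and 3.11 in AKI and 2.28 and 2.70 in CKD, 3.51 times the control on average. Pdcd1 was at 0.257 there (16 UMIs, 0.147 to 0.417) and at 0.507, 0.645, 0.483 and 0.520 in the injected libraries, 2.10 times the control on average. Cd160 was at 0.530 in the control CD4 class (0.365 to 0.744) and between 0.200 and 0.272 in the injected libraries, 2.26 times lower on average, and Tcf7 at 1.62 (1.32 to 1.97) against 0.950 to 1.07, 1.60 times lower. These 4 genes left the control's interval in every injected library of the CD4 class, and the share of all genes that did so was not counted. Tox at 0.562 (0.391 to 0.781) and Cd274 at 0.594 (0.418 to 0.819) did not, with Tox at 0.614 and 0.678 in CKD and Cd274 at 0.814 in CKD 1 still inside. The 15 Foxp3-positive control cells gave 45 UMIs of Ctla4, a level of 10.2 per 10000 (7.44 to 13.6), and 0 to 4 UMIs of each other gene, so that control was not set against the injected libraries. The control differed from the injected libraries in more than these genes: with cells thinned to 1000 UMIs, 4.61% of its CD8 T cells had a UMI of Mki67 or Top2a, genes transcribed in dividing cells, against 6.51 to 17.3% in the injected libraries.

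**Figure D2:**
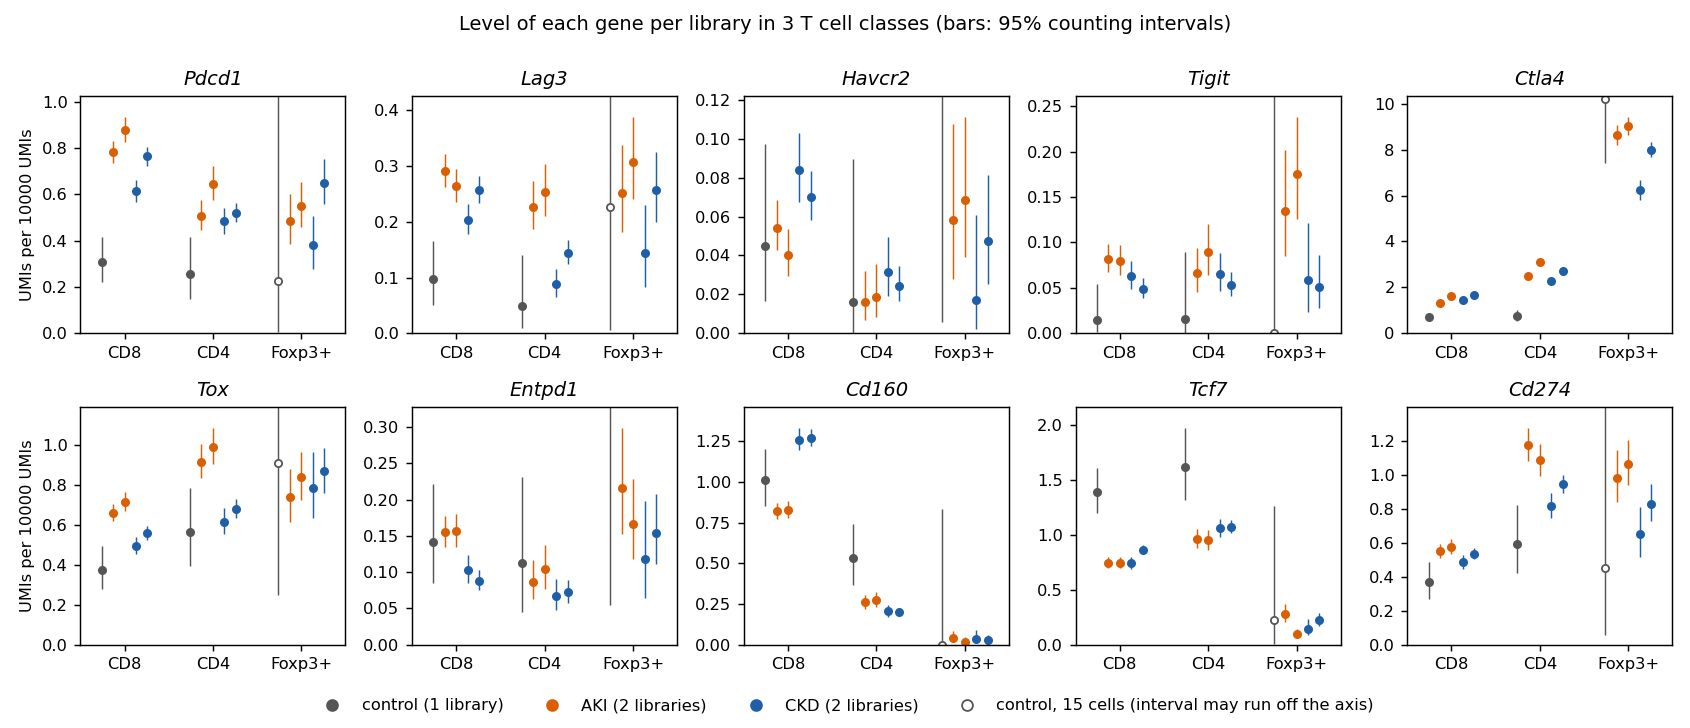
Level of each of the 10 genes in UMIs per 10000 UMIs, per library, in CD8, conventional CD4 and Foxp3-positive T cells, with exact Poisson 95% counting intervals as bars and the control's 15 Foxp3-positive cells as open circles, of which those of Havcr2 (0.227 from 1 UMI) and Entpd1 (0.453 from 2 UMIs) lie above their axes. Pdcd1 in CD8 T cells is at 0.306 in the control and between 0.614 and 0.878 in the injected libraries, and Cd160 in CD8 T cells is at 1.26 and 1.27 in CKD above 0.821 and 0.827 in AKI.

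The classes were then compared within the 4 injected libraries, which asks which T cell type carries which gene. Of the 10 genes, all of which passed the filter on low counts, 4 were higher and 2 lower in Foxp3-positive than in conventional CD4 T cells, where 21.8% of the 10980 genes tested were called in either direction (edgeR's quasi-likelihood test with the library as a block, Benjamini-Hochberg adjusted p under 0.05). The median log2 difference was 0.24 over the 10 genes and -0.01 over all genes tested. Ctla4 was 2.94-fold higher in Foxp3-positive T cells (log2 1.56 ± 0.08 SE, adjusted p = 2.61e-12), with AKI levels of 8.63 and 9.02 per 10000 and CKD levels of 6.23 and 7.99 against 2.28 to 3.11 in conventional CD4 T cells. Entpd1, whose product removes ATP on regulatory T cells, was 1.92-fold higher (log2 0.94 ± 0.17, adjusted p = 0.000348), at 0.216, 0.167, 0.118 and 0.154 per 10000 against 0.0869, 0.104, 0.0664 and 0.0719. Entpd1 was thus higher in the Foxp3-positive class in each library.

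Havcr2 was 2.26-fold higher in Foxp3-positive than in conventional CD4 T cells (log2 1.17 ± 0.35, adjusted p = 0.0203), but rested on 2 to 16 UMIs per library in the Foxp3-positive class. The call was lost without AKI 1, AKI 2 or CKD 2 (adjusted p = 0.104, 0.161 and 0.0591). It was also lost with 2 UMIs asked of the gate genes of every class (0.0761) and with T cells taken by at least 2 Cd3 UMIs alone, without the clusters (0.178). In CKD 1 the order of Havcr2 was the other way, with 0.0169 per 10000 in Foxp3-positive and 0.0315 in conventional CD4 T cells. Lag3 was 1.39-fold higher (log2 0.48 ± 0.17, adjusted p = 0.0489), just under the threshold, and lost the call without CKD 1 or CKD 2 (0.0815 and 0.347), with DESeq2 (0.0774), with doublets kept (0.0520) and under both changes of the gate (0.535 and 0.117). The genes lower in Foxp3-positive T cells were Cd160, 7.99-fold (log2 -3.00 ± 0.33, adjusted p = 7.78e-07), with 4 to 8 UMIs per library, and Tcf7, 5.65-fold (log2 -2.50 ± 0.15, adjusted p = 1.05e-10). Tcf7 was at 0.281, 0.0941, 0.143 and 0.220 per 10000 in the Foxp3-positive class and at 0.950 to 1.07 in the conventional CD4 class, with no overlap. Pdcd1 (log2 -0.07 ± 0.10), Tox (0.00 ± 0.10), Tigit (0.56 ± 0.22) and Cd274 (-0.21 ± 0.08) did not pass the threshold, with adjusted p from 0.0720 to 0.9995.

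Between CD8 and conventional CD4 T cells, 5 of the 10 genes were higher and 3 lower in CD8, where 24.6% of 10980 genes were called in either direction, and their median log2 difference was 0.36 beside 0.00 over all genes. Cd160 was 4.94-fold higher in CD8 T cells (log2 2.31 ± 0.13, adjusted p = 2.41e-11) and Havcr2 2.94-fold (log2 1.56 ± 0.23, adjusted p = 2.83e-05). Pdcd1 was 1.54-fold (log2 0.62 ± 0.08), Lag3 1.63-fold (0.70 ± 0.12) and Entpd1 1.61-fold higher (0.69 ± 0.13), with adjusted p = 5.57e-06, 0.000194 and 0.000357 in edgeR's test. Lower in CD8 T cells were Cd274, 1.71-fold (log2 -0.77 ± 0.07, adjusted p = 4.22e-08), and Ctla4, 1.60-fold (log2 -0.67 ± 0.07, adjusted p = 4.59e-07). Tox was 1.20-fold lower in CD8 (log2 -0.26 ± 0.09, adjusted p = 0.0317), a call that was lost without AKI 1, AKI 2 or CKD 1 (adjusted p = 0.123, 0.0886 and 0.0656), with DESeq2 (0.0716), with 2 UMIs in the gate (0.173) and with CD4 T cells holding no Il2ra or Ikzf2 UMI (0.0705). The Entpd1 call was lost with T cells taken by Cd3 UMIs alone (0.0538). Tigit (0.09 ± 0.16) and Tcf7 (-0.26 ± 0.10, adjusted p = 0.0521) were not called. Macrophage transcripts also differed between the classes, with 5 of 7 tested macrophage markers higher in CD8 T cells (median log2 0.41), and their part in the Havcr2 and Entpd1 differences was not tested.

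**Figure D3:**
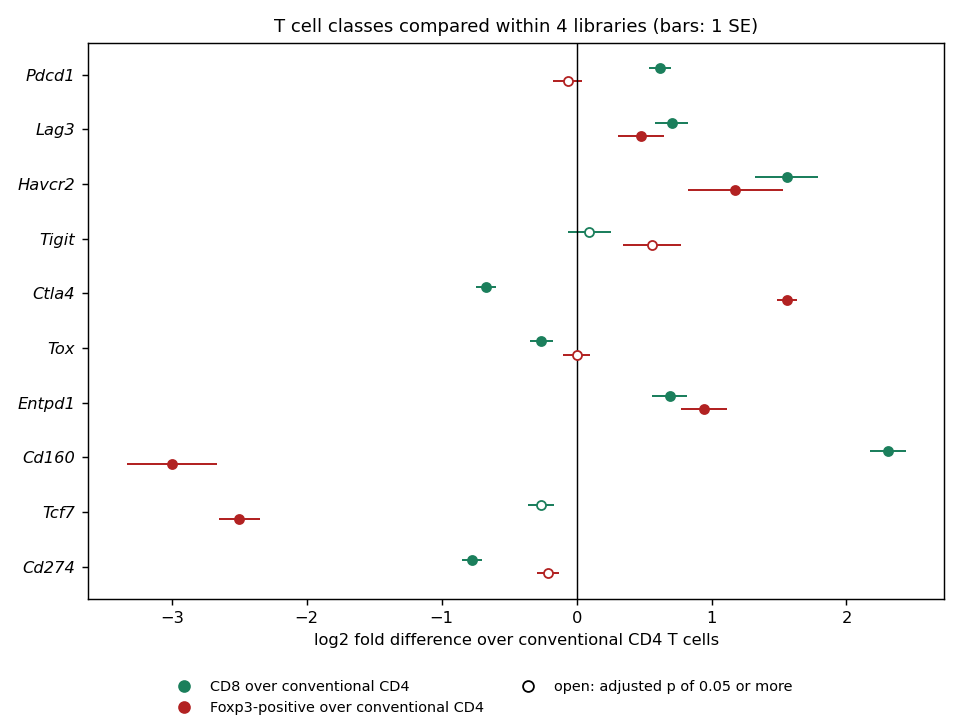
Log2 difference of each gene between CD8 or Foxp3-positive T cells and conventional CD4 T cells over the 4 injected libraries, with 1 SE as bars and filled points for an adjusted p under 0.05. Ctla4 is 1.56 higher in Foxp3-positive and 0.67 lower in CD8 T cells, and Cd160 is 2.31 higher in CD8 and 3.00 lower in Foxp3-positive T cells.

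From AKI to CKD, edgeR called 2 of the 10 genes in CD8, none in conventional CD4 and 1 of 9 tested in Foxp3-positive T cells, beside 16.0%, 0.844% and 5.98% of all genes tested in those classes. In CD8 T cells Cd160 rose and Entpd1 fell, and the other 8 did not pass the threshold, where 11.2% of 12304 genes were called higher and 4.81% lower in CKD (edgeR's quasi-likelihood test, 2 against 2 libraries). The median log2 change was -0.21 over the 10 genes and -0.02 over all genes tested. Cd160 rose 1.52-fold (log2 0.61 ± 0.08 SE, adjusted p = 0.00896), from 0.821 and 0.827 per 10000 in AKI to 1.26 and 1.27 in CKD. The 2 libraries of each stage lay close together, and natural killer-like cells held 0.676 and 0.941 in AKI and 0.870 and 1.12 in CKD. Entpd1 fell 1.65-fold (log2 -0.72 ± 0.13, adjusted p = 0.0179), from 0.155 and 0.156 to 0.103 and 0.0880. Both calls were lost when cells with a UMI of Mki67 or Top2a were left out (Cd160 log2 0.56, adjusted p = 0.107, and Entpd1 -0.47, adjusted p = 0.256). Both were also lost without AKI 1 and without AKI 2, in fits that hold 1 AKI library and take their spread from the CKD pair alone. With each library left out in turn, the log2 change ran from 0.54 to 0.66 for Cd160 and from -0.78 to -0.66 for Entpd1. Macrophage-like cells carried Entpd1 at 0.565 ± 0.0206 in AKI and 0.201 ± 0.00849 in CKD, and the macrophage markers within the CD8 class fell as well (5 of 8, median log2 -1.72). The part of these transcripts in the Entpd1 result was not tested.

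Of the CD8 receptors that did not pass, Havcr2 was at 0.0544 and 0.0403 per 10000 in AKI and 0.0840 and 0.0700 in CKD (log2 0.68 ± 0.22, adjusted p = 0.0883). Tigit was at 0.0819 and 0.0797 in AKI and 0.0630 and 0.0491 in CKD (log2 -0.55 ± 0.18, adjusted p = 0.0974). Tox was at 0.659 and 0.714 in AKI and 0.495 and 0.556 in CKD (log2 -0.39 ± 0.11, adjusted p = 0.0670). Pdcd1, Lag3 and Cd274 had log2 changes of -0.28 ± 0.15, -0.27 ± 0.15 and -0.15 ± 0.10, and Ctla4 and Tcf7 of 0.07 ± 0.14 and 0.10 ± 0.12. Single libraries decided several of these: without CKD 2, Pdcd1, Lag3, Tox and Havcr2 passed, and without CKD 1, Havcr2 and Tigit did. Such a fit holds 1 CKD library and takes its spread from the AKI pair alone, so its passes do not show a change. With each library left out in turn, the log2 change ran from -0.51 to -0.085 for Pdcd1 and from -0.51 to -0.071 for Lag3. It ran from -0.54 to -0.27 for Tox, 0.50 to 0.91 for Havcr2 and -0.68 to -0.43 for Tigit. Over all 13 alternatives Havcr2 and Tox were called in 3 each, not all of them fits that leave out a library. The libraries of AKI and CKD did not overlap for 8 of the 10 genes (CKD higher for Havcr2 and Cd160, lower for Pdcd1, Lag3, Tigit, Tox, Entpd1 and Cd274), but 60.2% of all genes tested did not overlap either.

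In conventional CD4 T cells edgeR called none of the 10 genes, where 0.844% of 10788 genes were called (91, with 2010 at an unadjusted p under 0.05). DESeq2 called 255 genes, Tox among them (log2 -0.59, adjusted p = 0.0198). Lag3 and Tox had the smallest p of the 10 in edgeR's test. Lag3 was at 0.226 and 0.254 per 10000 in AKI and at 0.0880 and 0.145 in CKD (log2 -1.02 ± 0.24, adjusted p = 0.0934), and Tox at 0.914 and 0.988 in AKI and 0.614 and 0.678 in CKD (log2 -0.59 ± 0.12, adjusted p = 0.0717). Both passed in edgeR's test without CKD 1 and without CKD 2, where Ctla4 and Cd274 passed too. These fits hold 1 CKD library and take their spread from the AKI pair alone, so their passes do not show a change. With each library left out in turn, the log2 change ran from -1.51 to -0.73 for Lag3 and from -0.69 to -0.49 for Tox. Lag3 also passed with 2 UMIs in the gate (0.0298), and Tox with CD4 T cells holding no Il2ra or Ikzf2 UMI (0.0452). Cd160 was at 0.259 and 0.272 in AKI and 0.206 and 0.200 in CKD (log2 -0.42 ± 0.14, adjusted p = 0.171), and Cd274 at 1.17 and 1.09 in AKI and 0.814 and 0.945 in CKD (log2 -0.39 ± 0.13, adjusted p = 0.184). The remaining 6 genes had log2 changes between -0.49 (Entpd1) and 0.61 (Havcr2, 8 to 30 UMIs per library), with adjusted p of 0.292 or more. The median over the 10 genes was -0.41, beside -0.02 over all genes, and 8 of the 10 did not overlap between AKI and CKD, as did 52.1% of all genes.

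In Foxp3-positive T cells 9 of the 10 genes passed the filter on low counts, all but Cd160, and Tigit alone was called, where 5.98% of 8823 genes were, 2.66% higher and 3.32% lower in CKD. Tigit fell 2.89-fold (log2 -1.53 ± 0.36, adjusted p = 0.0215), from 0.134 and 0.175 per 10000 in AKI (23 and 41 UMIs) to 0.0590 and 0.0513 in CKD (7 and 14 UMIs). The call was lost without AKI 2, in a fit that holds 1 AKI library and takes its spread from the CKD pair alone. It was also lost without cells holding Mki67 or Top2a UMIs (log2 -0.94, adjusted p = 0.446), with 2 Foxp3 UMIs in the gate (0.0748) and with T cells taken by Cd3 UMIs alone (0.117). Ctla4 was at 8.63 and 9.02 in AKI and 6.23 and 7.99 in CKD (log2 -0.31 ± 0.13, adjusted p = 0.180), and Cd274 at 0.982 and 1.06 in AKI and 0.649 and 0.829 in CKD (log2 -0.45 ± 0.17, adjusted p = 0.132). Pdcd1 was at 0.485 and 0.552 in AKI and 0.379 and 0.649 in CKD, where the CKD libraries lay on either side of AKI. Without CKD 2, Ctla4, Lag3 and Cd274 passed as well, in a fit that holds 1 CKD library and takes its spread from the AKI pair alone. The median was -0.39 over the 9 genes tested and -0.01 over all genes, and 5 of the 9, all lower in CKD, did not overlap, beside 53.7% of all genes.

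**Figure D4:**
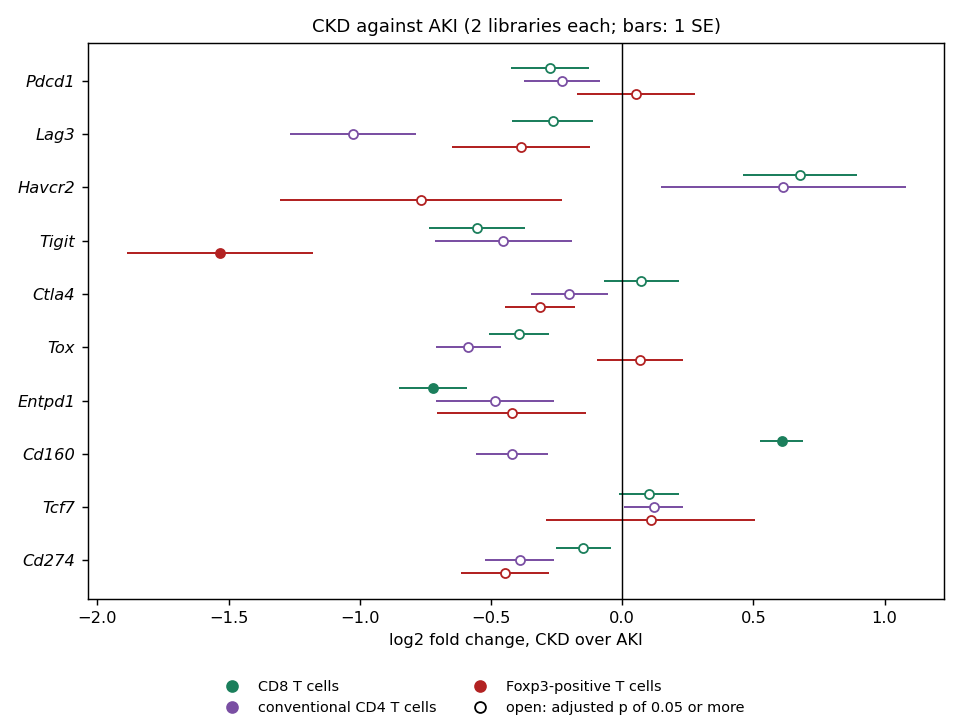
Log2 fold change of each gene from AKI to CKD in the 3 T cell classes, 2 libraries against 2, with 1 SE as bars and filled points for an adjusted p under 0.05. The filled points are Cd160 at 0.61 and Entpd1 at -0.72 in CD8 T cells and Tigit at -1.53 in Foxp3-positive T cells.

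Transcripts of cell division moved with the stage. With each cell thinned to 1000 UMIs, 6.51 and 7.11% of CD8 T cells had a UMI of Mki67 or Top2a in AKI and 17.3 and 15.2% in CKD, 8.58 and 11.5% against 23.2 and 16.3% of conventional CD4 T cells, and 9.52 and 11.8% against 24.4 and 18.04% of Foxp3-positive T cells. The share in proximal tubule-like cells moved the same way, from 2.76 and 2.07% to 8.19 and 3.96%, and the part of background RNA in the T cell shares was not tested, so a cell with such a UMI is not thereby shown to divide. In summed UMIs, Mki67 and Top2a were at 1.79, 1.41, 4.60 and 4.15 per 10000 in CD8 T cells and at 0.0810, 0.0628, 0.556 and 0.326 in proximal tubule-like cells. Without thinning, 18.1, 20.01, 37.8 and 39.1% of CD8 T cells had such a UMI, and the levels below are split by it. In CD8 T cells without such a UMI, Cd160 was at 0.807 and 0.822 per 10000 in AKI and 1.18 and 1.23 in CKD, and in those with one at 0.857 and 0.840 against 1.33 and 1.30, so that CKD was higher in both. Entpd1 in CD8 T cells was at 0.162 and 0.160 against 0.136 and 0.10 without such a UMI, and at 0.136 and 0.145 against 0.0763 and 0.0790 with one. Lag3 in CD8 T cells without such a UMI was at 0.290 and 0.224 in AKI and 0.217 and 0.329 in CKD, with overlap. Cd274 was lower in conventional CD4 T cells with such a UMI than in those without one in each injected library, at 0.753, 0.761, 0.618 and 0.750 against 1.46, 1.36, 1.22 and 1.25. Tigit in Foxp3-positive T cells without such a UMI was at 0.176 and 0.230 in AKI and 0.111 and 0.104 in CKD.

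Whether the change from AKI to CKD differed between classes was tested as an interaction in 1 fit of 3 classes and 4 libraries. The median difference of the changes over the 10 genes was 0.07 for CD8 and 0.04 for Foxp3-positive against conventional CD4 T cells, beside -0.01 and -0.02 over all genes. Of the 10, Cd160 and Lag3 changed differently in CD8 than in conventional CD4 T cells, where 1.43% of 11569 genes were called. Cd160 was 1.26 and 1.27 in CKD above 0.821 and 0.827 in AKI in CD8 T cells but 0.206 and 0.200 below 0.259 and 0.272 in conventional CD4 T cells, a difference of log2 0.97 ± 0.15 (adjusted p = 0.000164). That call held without each library in turn and was lost with T cells taken by Cd3 UMIs alone (log2 1.02, adjusted p = 0.288, a setting in which edgeR called 0 genes, with 463 at an unadjusted p under 0.05, where DESeq2 called 49 in the clustered T cells). Lag3 differed by log2 0.71 ± 0.18 (adjusted p = 0.0391), being lower in CKD mainly in conventional CD4 T cells, and lost the call without AKI 2 (0.400), without CKD 1 (0.0731), without cells holding Mki67 or Top2a UMIs (log2 0.60, adjusted p = 0.565), with CD4 T cells holding no Il2ra or Ikzf2 UMI (0.177) and with T cells taken by Cd3 UMIs alone (0.929). The remaining 8 differences lay between log2 -0.32 ± 0.25 (Entpd1) and 0.21 ± 0.10 (Ctla4), with adjusted p of 0.467 or more.

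Between Foxp3-positive and conventional CD4 T cells, Tox alone of the 10 changed differently, where 0.354% of 11569 genes were called. Tox was at 0.737 and 0.838 per 10000 in AKI and 0.784 and 0.866 in CKD in Foxp3-positive T cells, against 0.914 and 0.988 in AKI and 0.614 and 0.678 in CKD in conventional CD4 T cells. The difference of the changes was log2 0.64 ± 0.15 (adjusted p = 0.0372), with the call lost without AKI 1, AKI 2 or CKD 2 (0.264, 0.196 and 0.176), with DESeq2 (0.225), without cells holding Mki67 or Top2a UMIs (0.249, at a difference of log2 0.66 ± 0.21) and under both changes of the gate (0.428 and 0.838). For Tigit, called in the Foxp3-positive class alone, the difference from the conventional CD4 class was log2 -1.06 ± 0.41 and did not pass (adjusted p = 0.424), so its change is not shown to differ between the classes. Havcr2 (log2 -1.35 ± 0.64), Lag3 (0.59 ± 0.26), Cd160 (0.59 ± 0.57) and Pdcd1 (0.29 ± 0.19) did not pass either, with adjusted p of 0.502 or more, and the other 4 differences lay between -0.13 (Ctla4) and 0.07 (Entpd1).

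Other genes of T cell inhibition gave a background to these values. The CD8 calls from AKI to CKD among the inhibitory receptors, ligands, exhaustion factors, immediate early, effector, memory, co-stimulatory, cell cycle and interferon genes were all lost when cells with a UMI of Mki67 or Top2a were left out (edgeR, 2 of 11455 genes called in all, 1800 at an unadjusted p under 0.05) and without AKI 2 (0 of 12816, with 2357 at an unadjusted p under 0.05, where DESeq2 called 1644 over the 4 libraries). Of 12 further inhibitory genes, with the ectoenzyme gene Nt5e among them, 12 were tested in CD8 T cells. From AKI to CKD 3 of them fell and 1 rose, beside 4.81% of all genes lower and 11.2% higher. Their median log2 change was -0.35, beside -0.02 over all genes, and -0.20 without the cells holding Mki67 or Top2a UMIs. Klrc1, the NKG2A receptor for Qa-1, fell by 0.66 ± 0.12 (adjusted p = 0.0194), Nt5e, the CD73 ectoenzyme that works after CD39, fell by 0.40 ± 0.09 (0.0358) and Cd101 fell by 0.87 ± 0.22 (0.0482), while Klrg1, a receptor of differentiated effector cells, rose by 0.70 ± 0.17 (0.0382). In conventional CD4 T cells none of the 10 tested was called. In Foxp3-positive T cells 1 of 9, the ectoenzyme gene Nt5e and no receptor, fell by 0.78 ± 0.18 (edgeR, adjusted p = 0.0238), beside 3.32% of all genes. Of 10 checkpoint ligands, 8 were tested in CD8 T cells, where 11.2% of all genes rose and 4.81% fell. Lgals9, the galectin-9 ligand of TIM-3, rose by 0.43 ± 0.08 (0.0209) and Pvr, the ligand of TIGIT, fell by 0.59 ± 0.12 (0.0247). None of the 6 ligands tested in either of the other classes was called.

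A further list held transcription factors linked to exhaustion. Of 16, 8 fell and 1 rose in CD8 T cells from AKI to CKD (median log2 -0.51), where 4.81% of all genes fell, 2 fell in conventional CD4 T cells (median -0.27, beside 0.658% of all genes), and 4 of 15 tested fell and 1 rose in Foxp3-positive T cells (median -0.37, beside 3.32% of all genes lower). Without cells holding Mki67 or Top2a UMIs none of them was called by edgeR in any of the 3 classes, with medians of -0.25, -0.17 and -0.07. Without AKI 2, 0, 0 and 2 fell (medians -0.56, -0.33 and -0.28). Nr4a3, an orphan receptor induced by T cell receptor signals, fell in the 3 classes by 1.30 ± 0.09, 0.97 ± 0.12 and 1.12 ± 0.18 on the log2 scale (edgeR, adjusted p = 0.00313, 0.0159 and 0.00444). Nr4a2 fell in CD8 and conventional CD4 T cells by 0.83 ± 0.11 and 0.65 ± 0.11 (0.00811 and 0.0432). In CD8 T cells Tbx21, the effector factor T-bet, fell by 1.03 ± 0.15 (0.0101) and Id2 by 0.60 ± 0.09 (0.0106). In Foxp3-positive T cells Batf rose by 0.72 ± 0.17 (0.0209) and Nfatc1 fell by 0.76 ± 0.18 (0.0215). Of 13 immediate early and stress genes, which dissociation also induces, 12 fell in CD8 (4.81% of all genes), 6 in conventional CD4 (0.658%) and 5 in Foxp3-positive T cells (3.32%). Their summed level in CD8 T cells was 133 and 144 per 10000 in AKI and 83.0 and 73.0 in CKD. The part of that difference in the falls of Nr4a2 and Nr4a3 was not tested.

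Of 11 effector genes, 7 fell and none rose in CD8 T cells, beside 4.81% of all genes lower and 11.2% higher. Their median log2 change was -0.55, and -0.29 without cells holding Mki67 or Top2a UMIs, where none was called. The chemokine Ccl4 fell by 1.09 ± 0.09, Fasl by 1.04 ± 0.11, Prf1 by 1.02 ± 0.11 and the chemokine Ccl3 by 1.19 ± 0.20 (edgeR, adjusted p = 0.00376, 0.00578, 0.00654 and 0.0164). Ccl3 and Ccl4 also fell in conventional CD4 T cells (by 1.55 ± 0.20 and 1.07 ± 0.10) and in Foxp3-positive T cells (by 2.29 ± 0.24 and 1.55 ± 0.19). In these classes 2 of 10 and 4 of 10 tested effector genes fell, beside 0.658 and 3.32% of all genes. Without cells holding Mki67 or Top2a UMIs, Ccl3 in conventional CD4 and both in Foxp3-positive T cells were still called (adjusted p = 0.0165, 0.0121 and 0.000543), and without AKI 2 neither was in conventional CD4 T cells. Macrophages also transcribe Ccl3 and Ccl4, and macrophage markers fell in these classes as well, 5 of 7 tested in conventional CD4 (median log2 -1.67) and 5 of 6 in Foxp3-positive T cells (median -2.16). Their summed level was 3.60 and 5.74 per 10000 in AKI and 1.21 and 0.738 in CKD in conventional CD4, and 3.35 and 5.12 against 1.14 and 0.649 in Foxp3-positive T cells, with 1 of the 8 markers at 0 in each CKD library of the latter. The part of these transcripts in the falls of Ccl3 and Ccl4 was not tested. Of 15 progenitor and memory genes in CD8 T cells, 2 rose and 2 fell, beside 11.2% of all genes higher and 4.81% lower. The homing receptor Ccr7 rose by 0.95 ± 0.13 (0.00954) and Slamf6 by 0.58 ± 0.14 (0.0366). The chemokine Xcl1 fell by 1.06 ± 0.10 (0.00432) and Bcl6 by 1.08 ± 0.19 (0.0167), while Tcf7 itself did not pass the test. Of 8 co-stimulatory receptors, Tnfrsf1b fell by 0.90 ± 0.11 in CD8 (0.0073), Cd27 fell by 0.91 ± 0.14 in conventional CD4 (0.0298), and Tnfrsf1b and Tnfrsf9 fell by 0.87 ± 0.21 and 0.61 ± 0.17 in Foxp3-positive T cells (0.0249 and 0.0455). Over all genes 4.81, 0.658 and 3.32% fell in these classes. All 12 cell cycle genes rose in CD8 T cells (median log2 1.83), 5 in conventional CD4 (0.85) and 9 in Foxp3-positive T cells (0.84), beside 11.2, 0.185 and 2.66% of all genes. Of 10 interferon-stimulated genes, 1 fell in CD8 (4.81% of all genes) and 4 of 8 tested in Foxp3-positive T cells (3.32%), among them Ifit1 by 1.11 ± 0.11 (0.000175). Of 9 regulatory T cell genes, none rose, and 1 fell in CD8, 3 in conventional CD4 and 4 in Foxp3-positive T cells. Their median log2 changes were -0.27, -0.78 and -0.69, and 4.81, 0.658 and 3.32% of all genes fell. The conventional CD4 gate cannot remove regulatory T cells that had no Foxp3 UMI. Beyond leaving out cells with an Il2ra or Ikzf2 UMI, their part in the changes of that class was not tested.

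The same lists were compared between classes. Of the 12 further inhibitory genes, 2 were higher and 3 lower in Foxp3-positive than in conventional CD4 T cells, beside 11.1 and 10.7% of all genes. Klrg1 was 13.1-fold higher (edgeR, adjusted p = 7.3e-13) and Cd96 1.98-fold lower (3.9e-06). In CD8 against conventional CD4 T cells 5 were higher and 5 lower, beside 11.9 and 12.7% of all genes. Klrc1 was 67.9-fold and Cd244a 14.7-fold higher (edgeR, adjusted p = 3.5e-16 and 4.74e-10) and Cd200 2.93-fold lower (7.81e-10). Of 7 tested ligands, Cd80, which binds CTLA-4 and CD28, was 4.28-fold higher in Foxp3-positive T cells (2.89e-09), and Pdcd1lg2, the further ligand of PD-1, was 1.62-fold higher there and 2.08-fold lower in CD8 than in conventional CD4 T cells (3.21e-05 and 1.48e-08). Among the exhaustion factors, Ikzf2 was 5.71-fold higher in Foxp3-positive T cells (6.81e-13), Eomes 5.31-fold higher in CD8 T cells (3.28e-11), and Tox2, a relative of Tox, 5.71-fold lower in CD8 and 2.87-fold lower in Foxp3-positive than in conventional CD4 T cells (8.41e-13 and 2.56e-07).

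Joint detection was read as the share of CD8 T cells with UMIs of at least 2 of Pdcd1, Lag3, Havcr2 and Tigit. With each cell thinned to 1000 UMIs, this was 0 of 347 cells in the control, which allows a share of up to 0.865%, 0.517% (15 of 2903 cells, exact binomial 95% interval 0.289 to 0.851%) and 0.223% (6 of 2685, 0.0821 to 0.486%) in AKI, and 0.392% (8 of 2041, 0.169 to 0.771%) and 0.464% (10 of 2154, 0.223 to 0.852%) in CKD. The mean of the CKD libraries was 0.0580 percentage points above that of AKI, and all intervals overlapped, so no difference was detectable at this depth. With 2 libraries a group, the smallest exact permutation p is 0.333. No CD8 T cell of the 5 libraries held 3 of the receptors at 1000 UMIs. At 2000 UMIs the share was 0% in the control and 1.48, 1.40, 0.832 and 1.72% in the injected libraries, with 2 cells of CKD 2 at 3 or more receptors. Without thinning it was 0% in the control and 5.35, 4.83, 5.49 and 9.25%, highest in the library with the deepest cells.

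Detection of single receptors stood against free RNA as follows. At 1000 UMIs, 7.82, 7.86, 4.90 and 7.34% of CD8 T cells had a UMI of Pdcd1, against 0, 0.230, 1.65 and 1.83% of proximal tubule-like cells, and in the control 3.75% against 0%. Median depths before thinning were 3926, 3873, 3952 and 6082 UMIs in CD8 T cells and 2553, 5530, 2709.5 and 4236 in proximal tubule-like cells. Lag3 was found in 2.89, 2.23, 1.52 and 2.74% of CD8 T cells and in 0 to 0.482% of proximal tubule-like cells, and Tigit in 0.930, 0.894, 0.686 and 0.557% against 0 to 0.230%. Havcr2 was found in 0.310, 0.298, 0.588 and 0.650% of CD8 T cells, beside 0.361% of proximal tubule-like cells in CKD 1 and none in the other libraries. Per 10000 UMIs, Havcr2 in CD8 T cells of AKI was at 0.0544 and 0.0403, against 0.00202 and 0.00314 in proximal tubule-like cells of the same libraries (1 and 2 UMIs). In conventional CD4 T cells joint detection was at most 0.212%, and in Foxp3-positive T cells it was 0.366 and 1.03% in AKI (1 and 4 cells) and 0 of 135 and 0 of 255 in CKD, which allows up to 2.22 and 1.18%.

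Pairs of all 10 genes were counted in CD8 T cells thinned to 2000 UMIs, as the number of cells with both over the number that the product of the 2 shares gives, summed over the 4 injected libraries. These are descriptions without a test, over cells that share libraries. Pdcd1 met Lag3 in 75 cells, 1.42 times the product (1.16 to 1.57 by library), Tox in 157 cells, 1.37 times (1.15 to 1.56), and Ctla4 in 307 cells, 1.23 times (1.11 to 1.37). Lag3 met Ctla4 in 135 cells, 1.40 times (1.30 to 1.58), and Tox in 62 cells, 1.42 times (1.18 to 1.64). Each of these 5 pairs was above 1 in all 4 libraries. Tigit met Pdcd1 in 11 CD8 T cells, 0.671 times the product (0 to 1.07), Lag3 in 14 cells, 2.21 times (1.21 to 4.41), and Havcr2 in 0 cells, where the product gave 1.27. Havcr2 met Ctla4 in 31 cells, 1.56 times (1.31 to 1.88), and Pdcd1 in 22 cells, 2.11 times, but with a range of 0.942 to 3.91 by library, and Lag3 in 10 cells, 2.46 times (0 to 4.41). Tcf7 lay on the other side: it met Entpd1 in 14 cells, 0.476 times the product (0.312 to 0.655), Havcr2 in 4 cells, 0.361 times, and Cd160 in 165 cells, 0.889 times (0.860 to 0.985), below 1 in all 4 libraries. Tcf7 and Pdcd1 met in 109 cells, 0.775 times the product, but at 1.31 times in CKD 1. Tcf7 met the ligand gene Cd274 in 158 cells, 1.32 times (1.23 to 1.38), while Cd274 and Cd160 met in 114 cells, 0.753 times (0.572 to 0.872).

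**Figure D5:**
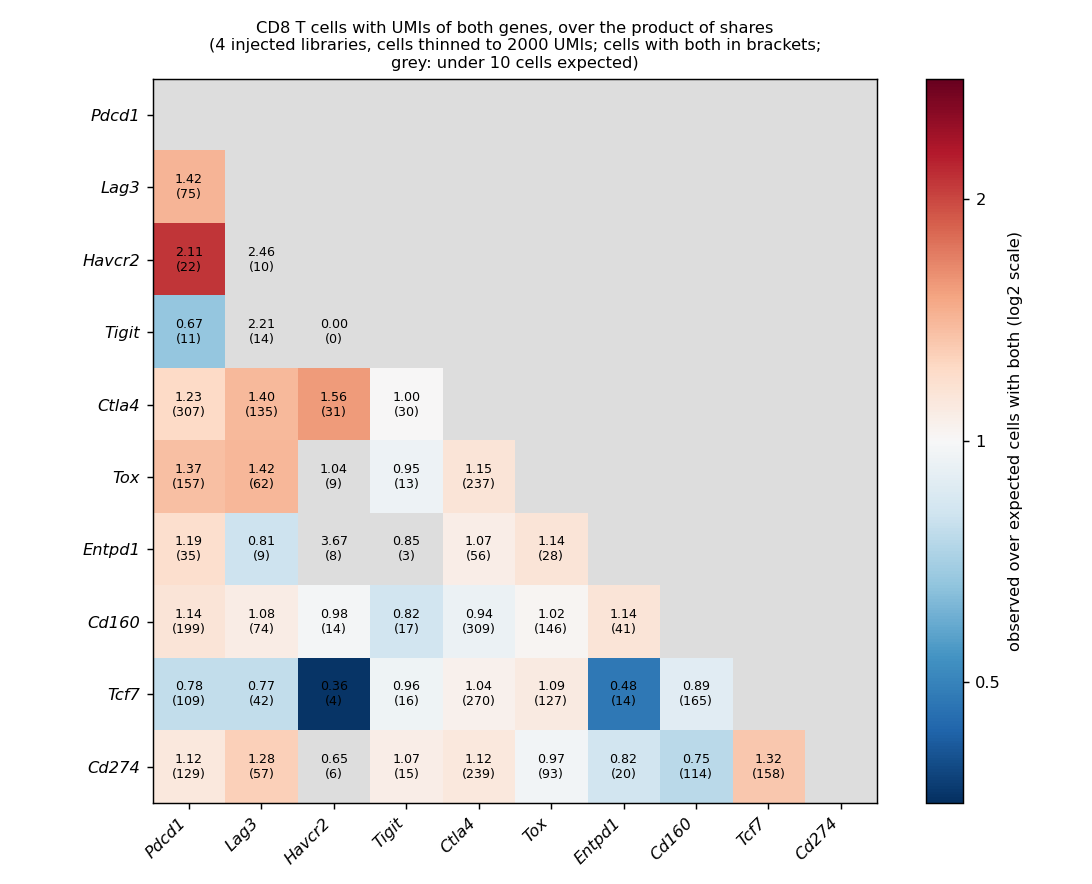
Ratio of observed to expected CD8 T cells with UMIs of both genes, for each pair, over the 4 injected libraries with cells thinned to 2000 UMIs, with the number of cells in brackets and colour on a log2 scale. Pdcd1 with Lag3 is at 1.42 (75 cells) and Tcf7 with Entpd1 at 0.48 (14 cells), and pairs under 10 expected cells are grey.

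In conventional CD4 T cells Pdcd1 and Lag3 met in 20 cells, 1.77 times the product (1.49 to 2.48), Lag3 and Ctla4 in 59 cells, 1.33 times (1.06 to 1.76), and Tigit and Ctla4 in 32 cells, 1.43 times (1.07 to 1.93). Tcf7 met Pdcd1 in 34 cells, 0.630 times (0.494 to 0.779), and Ctla4 in 170 cells, 0.781 times (0.626 to 0.921), both below 1 in all 4 libraries. Pdcd1 met Cd274 in 44 conventional CD4 T cells, 0.680 times (0.379 to 0.860), against 1.12 times in CD8 T cells, where the ratio ran from 0.754 to 1.49. In Foxp3-positive T cells Tox and Cd274 met in 43 cells, 1.49 times (1.30 to 1.88), and the pairs with Ctla4 that were seen in at least 10 cells lay between 0.798 and 1.08, where 41.5 to 56.9% of the cells had a Ctla4 UMI at 1000 UMIs.

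Across the 14 class-by-library sums, which share libraries and depth, the genes with the most similar log2 CPM to each of the 10 were taken among 8255 genes with at least 500 UMIs. Ctla4 was most like Il1rl1, the interleukin-33 receptor (Pearson r = 0.989), Tnfrsf9, the co-stimulatory receptor 4-1BB (0.982), and Tmem158 (0.981). Cd160 was most like St3gal6 (0.975), Ms4a4b (0.972) and Mctp2 (0.970), and Tcf7 most like Ehd3 (0.978), Itgal, a chain of the LFA-1 integrin (0.961), and Tlk1 (0.959). Tigit was most like Fth1 (0.965), Pmepa1 and Ifrd1, Cd274 most like Rbpj, the effector of Notch signals (0.961), Insl6 (0.949) and Aebp2 (0.938), and Pdcd1 most like Ntpcr (0.948), Vps28 and Ptpn1. Insl6 lies on the same chromosome as Cd274, at chr19:29321354-29325318, with 36789 bases between them. Lag3 was most like Gas5 (0.945), Rgs16 and 2410006H16Rik, Havcr2 most like Plac8 (0.893), Pnpla2 and Gm30054, Tox most like Uhrf2 (0.880) and Mdfic, and Entpd1 most like Fam102b (0.869), Cd27 and Acss2.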

How the data were processed

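Kidney cells of 1 control, 2 AKI and 2 CKD libraries were captured with a droplet kit that reads the 3′ end of transcripts. The authors counted UMIs per gene and barcode with Cell Ranger, which uses STAR (version 7.2.0 in the submitters' processing notes, 5.0.0 in a file header), and deposited filtered matrices of raw counts, of which all 5 list the same 32285 genes. The notes name the build GRCm39 and the control's gene list mm10. The counts here start from those matrices and are not normalized.

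Barcodes with over 30% mitochondrial UMIs or under 200 genes were removed, and doublets were removed by a score against simulated doublets, at 0.8% per 1000 cells. Cells were clustered (3000 variable genes without the genes reported here, 40 components, 20 neighbours, Leiden resolution 1.5, leidenalg 0.10.2, scikit-learn 1.9.0, Python 3.11.15), and clusters were named from marker lists with at least 3 detected markers. The scoring of clusters was settled after the clusters were seen. Levels are UMIs per 10000 UMIs of a class. UMIs were summed per library and class (at least 20 cells) and tested with edgeR 4.0.16 in R 4.3.3 (TMM scaling, its filter on low counts, quasi-likelihood test, Benjamini-Hochberg adjusted p under 0.05), with DESeq2 1.42.0 as an alternative. AKI and CKD were compared within a class, classes with the library as a block, and the change between classes as an interaction. The control library, with 15 Foxp3-positive cells, entered none of the main tests and was added to the class comparisons only as an alternative. On data simulated for CKD against AKI in the 3 classes and for Foxp3-positive against conventional CD4 T cells, 57.7 to 88.7% of 2-fold and 91.3 to 96.1% of 3-fold changes among 200 changed genes were called, with 5 to 9 false calls among 8675 to 12204 genes. The simulation gave all genes and libraries the same spread. Its changed genes had a mean of at least 20 UMIs per sum. These shares therefore do not describe rarer genes or the spread between the real libraries. Shares of cells were read after thinning each cell to 1000 or 2000 UMIs. Intervals are exact 95% intervals and cover counting error only, and the limit for a count of 0 is 3 counts.

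The 10 genes and the other gene lists were chosen with earlier results of these data known. All 10 genes are reported in every comparison, by value or within a range, and of each other list at most 4 genes per comparison, those called with the smallest p. The labels do not say that libraries of a group came from separate mice. Levels of different genes were not compared, since 3′ counts depend on the gene.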

Additional observations from a re-analysis of the deposited data

Results flagged for a closer look

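Differences between T cell classes in the change from AKI to CKD, by the interaction term of edgeR's quasi-likelihood test over 4 libraries, brought out 3 of the 10 genes. Cd160 changed by 0.970502 more on the log2 scale in CD8 than in conventional CD4 T cells (SE 0.15, adjusted p = 0.000164), with a log2 change of 0.61 in CD8 and of -0.42 in conventional CD4 T cells. Lag3 changed by 0.709138 more in CD8 than in conventional CD4 T cells (SE 0.18, adjusted p = 0.0391), with log2 changes of -0.27 and -1.02. Tox changed by 0.639894 more in Foxp3-positive than in conventional CD4 T cells (SE 0.15, adjusted p = 0.0372), with log2 changes of 0.07 and -0.59. Groups of 1 or 2 libraries were too small for a search for single libraries far from the rest.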

How the results depend on the processing

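Counts of called genes by edgeR's quasi-likelihood test depended on the cells taken. For CKD against AKI they were 1965 in CD8, 91 in conventional CD4 and 528 in Foxp3-positive T cells, and became 1076, 13 and 0 with T cells taken by Cd3 UMIs alone (1739 Foxp3-positive genes at an unadjusted p under 0.05), 2, 32 and 20 without cells holding Mki67 or Top2a UMIs, and 3070, 294 and 794 without the filter on low counts. DESeq2 called 255 in conventional CD4 and 243 in Foxp3-positive T cells, CD4 T cells without Il2ra or Ikzf2 UMIs gave 336, and a gate of 2 UMIs 169 in Foxp3-positive T cells. Between classes, 2393 for Foxp3-positive against conventional CD4 became 1296 with a gate of 2 UMIs, and 2704 for CD8 became 1767 by Cd3 UMIs alone. The interactions, 41 for Foxp3-positive and 166 for CD8, became 1 and 0 (463 at an unadjusted p under 0.05) by Cd3 UMIs alone, 15 and 33 without cells holding Mki67 or Top2a UMIs and 22 and 49 with DESeq2, with 83 for Foxp3-positive without the filter and 54 for CD8 with CD4 cells lacking Il2ra and Ikzf2 UMIs. Joint detection, 0.0580 percentage points higher in CKD, became -0.164 at 2000 UMIs and 2.28 without thinning.

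Leaving out 1 library, with a lone library assumed to vary like the others, gave 0 to 4130 genes in CD8 (0 without AKI 2, with 2357 at an unadjusted p under 0.05, and 236 without AKI 1), 1 to 2086 in conventional CD4 (1 without AKI 2, 2086 without CKD 2), 253 to 1235 in Foxp3-positive T cells (253 without AKI 2, 1235 without CKD 2), 1674 to 2036 and 2012 to 2640 between classes, 35 to 113 and 79 to 370 for the interactions, and -0.0886 to 0.205 points for joint detection. The replicate numbers pair no samples by the labels. Same-numbered libraries had correlated deviations of 0.211, 0.122 and 0.0744 in the 3 classes, over 2 pairs, and a replicate block gave 2450, 501 and 867 genes, with Tox in CD8 T cells (log2 -0.40, adjusted p = 0.0189) and Lag3 and Tox in conventional CD4 T cells (-1.08 and -0.59, adjusted p = 0.0102 and 0.0176) called too. The cause of these moves was not tested.

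No called gene of the 10 changed sign. Of 80 values of called genes without 1 library 18 lost the call, and of 206 under the other alternatives 23 did. Of the genes not called, 17 of 196 and 16 of 444 such values passed. The changes of sign among genes not called were these, on the log2 scale. Without cells holding Mki67 or Top2a UMIs, CKD against AKI gave 0.11 for Lag3 and 0.19 for Cd274 in CD8 T cells, Foxp3-positive against conventional CD4 gave 0.17 for Pdcd1 and -0.041 for Tox, CD8 against conventional CD4 gave -0.11 for Tigit, and the interactions gave -0.17 for Lag3 and -0.0015 for Entpd1 (Foxp3-positive) and -0.21 for Havcr2 and 0.15 for Tigit (CD8). With a gate of 2 UMIs, Entpd1 was at 0.24 in conventional CD4 and Tox at -0.040 in Foxp3-positive T cells, and the interactions were 0.11 for Cd274 and -0.78 for Entpd1 (Foxp3-positive) and 0.054 for Pdcd1 and -0.43 for Havcr2 (CD8). By Cd3 UMIs alone, Tcf7 was at -0.057 in Foxp3-positive T cells, with interactions of -0.18 for Tcf7 and 0.091 for Cd274. The Tcf7 interaction (Foxp3-positive) was also -0.057 at a mitochondrial limit of 15%, -0.068 with DESeq2 and -0.024 without the filter, where Tox in Foxp3-positive against CD4 was -0.052. With CD4 T cells lacking Il2ra and Ikzf2 UMIs, Pdcd1 was at 0.052 in that comparison and the Havcr2 interaction (CD8) at -0.37, which was -0.10 at the mitochondrial limit of 15%, and with doublets kept the Tigit interaction (CD8) was 0.0060.

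Leaving out 1 library moved the sign of Ctla4 (-0.084 to 0.26) and Tcf7 (-0.074 to 0.25) in CD8, of Pdcd1 (-0.49 to 0.34), Tcf7 (-0.57 to 1.03) and Tox (-0.049 to 0.15) in Foxp3-positive T cells, of Pdcd1 (-0.26 to 0.0081) and Tox (-0.16 to 0.11) between Foxp3-positive and CD4, and of the interactions of Cd160 (-0.056 to 1.28), Tcf7 (-0.68 to 0.87), Cd274 (-0.19 to 0.027), Entpd1 (-0.28 to 0.36) and Pdcd1 (-0.18 to 0.51) for Foxp3-positive and of Tigit (-0.38 to 0.013), Havcr2 (-0.25 to 0.32) and Tcf7 (-0.22 to 0.015) for CD8 T cells. Leaving out the T cell cluster with over 80% of its cells from CKD 1, and adding the control library at 10 cells a class, were chosen after seeing the data. Rare transcripts, such as Havcr2, Tigit and Cd160 in the Foxp3-positive class and Havcr2 in conventional CD4 T cells, with 2 to 41 UMIs per injected library, limit what depth can show.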
